A study of Mus musculus with 30 samples.

Results

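GFP-positive mesenchymal cells of the mouse colon were compared with GFP-high mesenchymal cells of the mouse small intestine, in 6 of the 30 libraries of the series. The 3 libraries of each tissue were chosen by their labels alone, with no measured value used. All came from C57BL/6 mice carrying the ColVI-cre and Rosa mTmG alleles, outside the series' colitis (DSS) groups, from freshly isolated cells. In such mice a Cre recombinase driven by collagen VI regulatory sequence removes a membrane Tomato cassette, and the cell and its descendants then show membrane GFP; cells that never had Cre stay Tomato-positive and are called GFP-negative here. The GFP-negative cells of the same tissues, with 3 libraries each, carry the same alleles. A colon library came from one GFP gate, whereas small intestine cells were sorted into a GFP-high and a GFP-low gate, so the gates compared were not shown to be the same. The labels give neither the age or sex of the mice nor which libraries shared a mouse, so p-values measure the spread between these libraries.

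Tissue and library series coincide. The colon and small intestine libraries carry separate runs of library numbers and were deposited in separately normalised tables, so no library of one tissue belongs to the series of the other. A difference between the tissues and a difference between the library series cannot be told apart in the comparison of the GFP sorts. The GFP-negative cells of the same series were used to show where a tissue difference was of another size in the GFP-positive cells.

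Collagen VI-expressing mesenchymal cells of the gut lie close to the epithelium and around crypts. They include telocytes, Foxl1- and Pdgfra-positive cells that secrete BMP and Wnt ligands, along with fibroblasts and perivascular cells. Hox genes, transcription factors arranged in 4 genomic clusters, mark the position of a cell along the length of the gut: genes with low paralogue numbers are in general used anteriorly and those with high numbers posteriorly. Complement, MHC class I and chemokine genes are used by stromal cells to take part in immunity, and retinoid enzymes supply retinoic acid to immune cells and epithelium.

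Values are the authors' normalised counts, further rescaled so that the 6 libraries share a scale, and are called rescaled counts. The table with the colon libraries held 16688 genes and that with the small intestine libraries 15129, of which 13930 were in both and 12173 were above 0 in all 6 libraries. Genes averaging 10 rescaled counts in at least 1 group (12394 genes) were tested with limma on log2(rescaled count + 1), with Benjamini-Hochberg adjustment over all of them; a gene passed at an adjusted p under 0.05. Fold changes on this scale understate the change of low genes.

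Of the genes tested, 2915 passed, which is 23.5%. They were 1635 higher in the colon GFP-positive cells (13.2%) and 1280 lower (10.3%). Counts of list members given below are to be read beside these shares. The groups did not overlap in 42.6% of all genes tested, and the median log2 difference over all of them was 0.05. With the authors' separate scales left as deposited, 89.2% of the calls were higher in the colon, against 56.1% on the shared scale. Leaving out 1 colon library had the largest effect on the count: 1430 genes passed without colon GFP-positive replicate 3 and 1735 without replicate 1. In the deposited tables the normalised totals ran from 3673100 to 4221627 in colon GFP-positive libraries and from 2136429 to 2257652 in GFP-high libraries. Correlations of log2 values were 0.944 to 0.953 among the colon libraries and 0.828 to 0.878 among the GFP-high libraries, and 0.656 to 0.735 across the tissues. The spacing of low values gave about 4415000 reads for colon GFP-positive replicate 2 and 2580000, 1376000 and 2785000 for the GFP-high replicates 1, 2 and 3; the other colon libraries were not resolved.

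The 2 tissues' tables differed in the values listed for neighbouring genes on opposite strands. Among pairs of genes whose exons lie within 1000 bases of each other on opposite strands and that averaged 50 or more, both genes had values equal within 10% in every library for 354 of 1423 pairs in colon GFP-positive cells (24.9%) and for 0 of 454 pairs in small intestine GFP-high cells. For example, the Hedgehog target Gli1 and its neighbour Arhgap9, on opposite strands, were both listed at 428, 370 and 709 normalised counts in the 3 colon libraries. Same-strand neighbours were equal in both tissues, in 296 of 598 colon pairs (49.5%) and 297 of 464 small intestine pairs (64.0%). A gene with an opposite-strand gene within 1000 bases, read at 50% or more of its own level in either group, is called strand-uncertain below. Such genes were 26.1% of those tested, 44.2% of those higher in the colon and 17.5% of those lower. Without them, 913 of the 1635 higher calls and 1056 of the 1280 lower calls were left, and when they were also kept out of the fit 997 genes passed as higher and 907 as lower. How strand entered the counting is not given in the sources used here. Of the 101 genes that passed with a log2 difference of 5 or more, 85 were strand-uncertain, against 4 of the 52 genes at -5 or less.

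**Figure D1:**
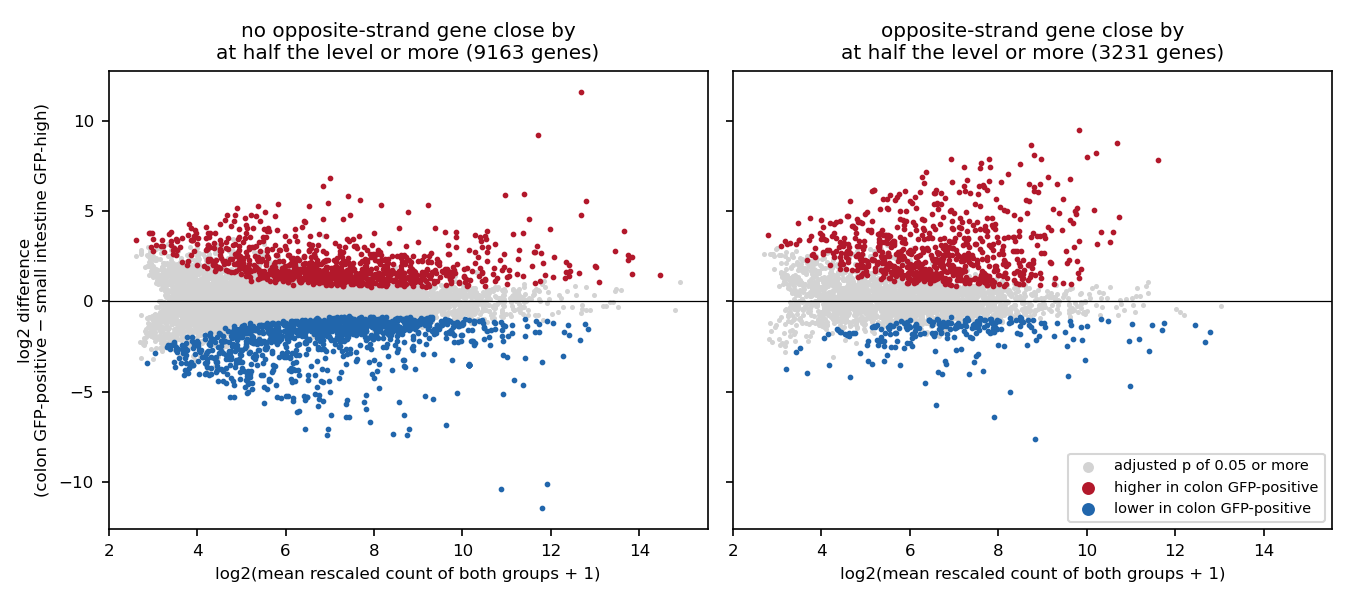
Log2 difference (colon GFP-positive minus small intestine GFP-high) of each tested gene against its mean rescaled count on a log2 scale, for genes without (left) and with (right, 3231 genes) an opposite-strand gene within 1000 bases read at 50% or more of their own level. Red points passed as higher and blue points as lower in the colon; on the right, most of the largest differences are higher in the colon.

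Procr, Foxl1 and Dio2, used as markers of the GFP sorts, did not move together. Procr, the endothelial protein C receptor and a stromal progenitor marker, was 13.3-fold higher in the colon, and Foxl1, the forkhead factor that defines subepithelial telocytes, was 10.9-fold higher. Dio2, the deiodinase that converts thyroxine to active thyroid hormone, was 28.2-fold higher in the small intestine. Procr (chr2:155751117-155755471, mm10) had 3741, 4111 and 4737 rescaled counts in the 3 colon GFP-positive libraries, against 257, 309.8 and 387 in the 3 GFP-high libraries (log2 difference 3.73 ± 0.28 SE, adjusted p = 1.8e-05). All 3 colon libraries were high and the groups did not overlap. Foxl1 (chr8:121127940-121130644) had 290.4, 302 and 411 in colon GFP-positive and 19.2, 29.8 and 43.9 in GFP-high libraries (log2 difference 3.45 ± 0.36 SE, adjusted p = 1.1e-04), again without overlap. Dio2 (chr12:90724554-90738438) had 23.9, 11.5 and 19.2 in colon GFP-positive and 442, 712 and 445 in GFP-high libraries (log2 difference -4.82 ± 0.36 SE, adjusted p = 1.7e-05). It was low in every colon library and its groups did not overlap. In the GFP-low small intestine gate Procr had 30.3, 113 and 12.6 and Foxl1 0, 15.2 and 10.1 rescaled counts. Dio2 had 0, 11.4 and 7.59 there, no higher than in the colon. With GFP-low in place of GFP-high its log2 difference was 1.97, in the other direction, and did not pass (adjusted p = 0.15). With both gates averaged it was -1.42, and the call was lost (adjusted p = 0.053). In GFP-negative cells Procr had 112, 245 and 235 in the colon and 34.1, 0 and 50.6 in the small intestine, and Foxl1 had 56.2, 39.2 and 40.8 and 7.59, 0 and 8.85. Both were thus higher in the GFP-positive sort of each tissue, while Dio2, at 9.23, 30.8 and 13.8 in colon GFP-negative cells, overlapped its colon GFP-positive level and did not mark the colon sort. In bulk samples fewer cells of a type and less RNA per cell cannot be told apart.

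Other genes used to identify these cells were closer between colon GFP-positive and GFP-high cells. Pdgfra, a receptor of telocytes and fibroblasts, had 2563, 2729 and 2432 in colon GFP-positive and 1903, 1935 and 3411 in small intestine GFP-high libraries (log2 difference 0.15 ± 0.31 SE, adjusted p = 0.77, 95% interval -0.54 to 0.83). The collagen VI chains Col6a1, Col6a2 and Col6a3, whose regulatory sequence is used in the Cre line, had log2 differences of -0.44, -0.07 and -0.49, with adjusted p of 0.44, 0.9 and 0.32. The smooth muscle actin Acta2 had 2014, 2047 and 3113 in colon GFP-positive and 3013, 1955 and 4001 in small intestine GFP-high libraries (log2 difference -0.29 ± 0.34 SE, adjusted p = 0.57). Against the GFP-low gate Acta2 was higher in the colon, at a log2 difference of 2.14 (adjusted p = 6.1e-04), and against the average of both gates at 0.94 (adjusted p = 0.027). None of these 5 genes passed against the GFP-high gate, which does not show that they are equal. Cd34, of adventitial and interstitial fibroblasts, was lower in the colon GFP-positive cells, at 575, 621 and 452 against 1237, 2279 and 896 in GFP-high cells (log2 difference -1.32 ± 0.36 SE, adjusted p = 0.024). That call was lost without colon replicate 1 (adjusted p = 0.061), without colon replicate 3 (0.097) and without GFP-high replicate 1 (0.051).

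Promoter windows are shown for 1 gene that was higher in the colon (Procr) and 3 that were lower (Dio2, Lrat and Rgs5), each 300 bases from RefSeq on GRCm38.p6, from 250 bases before to 50 after the annotated start. They are Procr at chr2:155750967-155751266 on the plus strand, Dio2 at chr12:90738989-90739288 on the minus strand, Lrat at chr3:82903925-82904224 on the minus strand and Rgs5 at chr1:169655251-169655550 on the plus strand. Capitals mark matches, on either strand, to the AP-1 motif TGANTCA, the forkhead core TAAACA or the cyclic AMP response element TGACGTCA; none of the matches overlap.
Procr: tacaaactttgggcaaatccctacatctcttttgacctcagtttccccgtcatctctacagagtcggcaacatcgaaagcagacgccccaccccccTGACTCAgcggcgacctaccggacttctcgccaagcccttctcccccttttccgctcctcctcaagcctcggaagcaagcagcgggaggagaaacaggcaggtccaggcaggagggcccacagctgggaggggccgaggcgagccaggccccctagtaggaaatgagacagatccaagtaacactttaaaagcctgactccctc
Dio2: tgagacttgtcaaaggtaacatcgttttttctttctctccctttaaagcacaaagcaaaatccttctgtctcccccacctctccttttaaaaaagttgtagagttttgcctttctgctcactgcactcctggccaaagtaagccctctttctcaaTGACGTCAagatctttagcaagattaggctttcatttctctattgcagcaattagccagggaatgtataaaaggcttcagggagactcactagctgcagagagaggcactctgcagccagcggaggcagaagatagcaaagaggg
Lrat: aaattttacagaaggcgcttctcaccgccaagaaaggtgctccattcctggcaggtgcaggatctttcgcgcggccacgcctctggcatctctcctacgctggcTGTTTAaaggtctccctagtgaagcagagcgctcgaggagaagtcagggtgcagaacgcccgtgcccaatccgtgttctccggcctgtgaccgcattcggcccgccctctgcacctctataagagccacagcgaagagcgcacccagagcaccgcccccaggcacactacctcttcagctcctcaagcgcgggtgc
Rgs5: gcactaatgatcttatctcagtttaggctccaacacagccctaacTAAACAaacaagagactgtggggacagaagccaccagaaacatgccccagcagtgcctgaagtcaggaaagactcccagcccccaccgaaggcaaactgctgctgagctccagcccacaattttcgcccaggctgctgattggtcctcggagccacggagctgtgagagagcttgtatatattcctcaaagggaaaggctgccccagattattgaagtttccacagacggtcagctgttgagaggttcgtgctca
The Procr window held 1 AP-1 match, a sequence found in 7.81% of the 32851 mouse windows searched. The Dio2 window held 1 cyclic AMP response element, found in 1.79% of windows, and its RefSeq start lies 600 bases from the gene start in the deposited tables. The Lrat and Rgs5 windows each held 1 forkhead core, found in 13.4% of windows. Foxl1 and Hoxc8 were not matched in the table. A match is a run of letters and was not tested as a binding site.

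**Figure D2:**
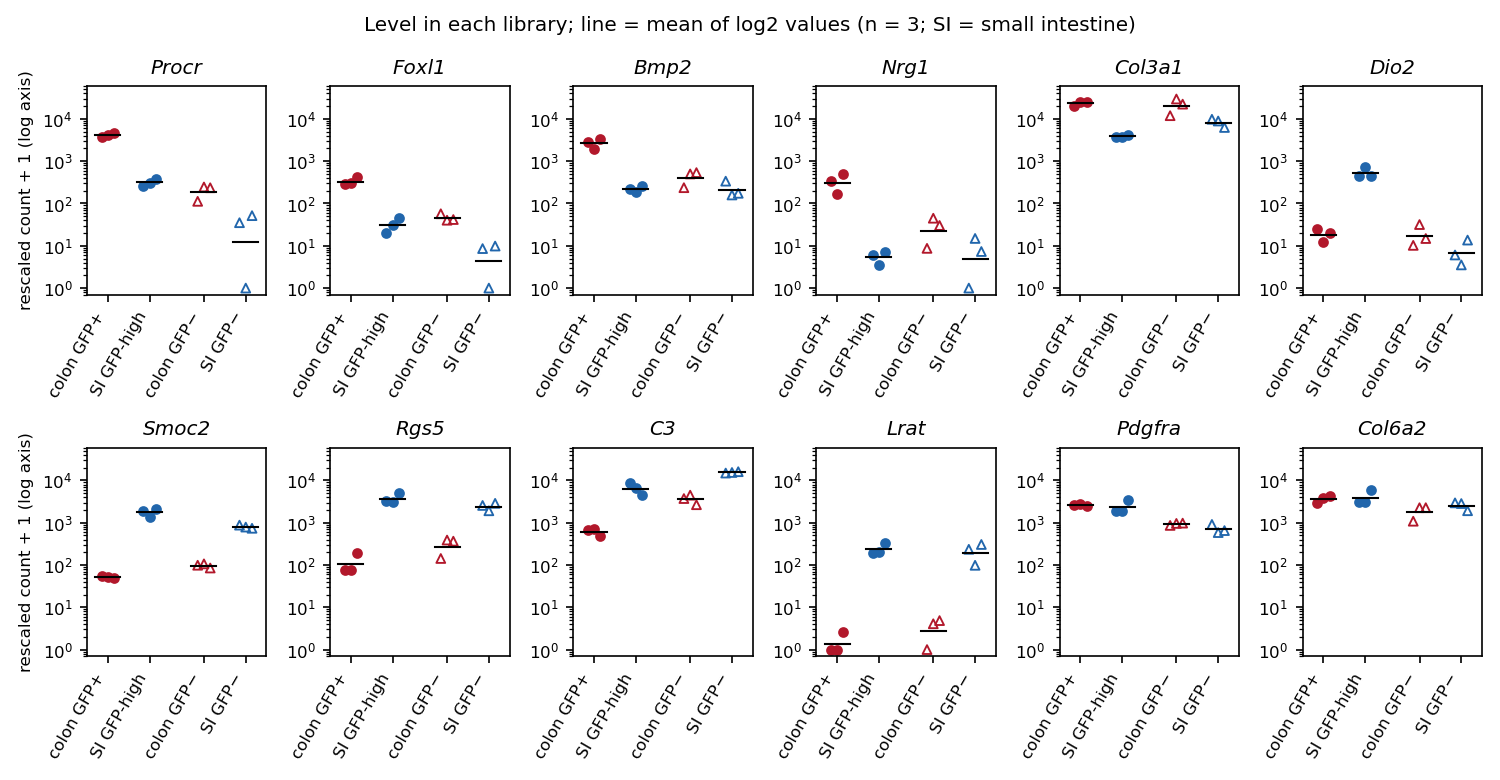
Rescaled count plus 1 (log axis) of 12 genes in each library: filled red circles colon GFP-positive, filled blue circles small intestine GFP-high, open red triangles colon GFP-negative and open blue triangles small intestine GFP-negative; lines are means of log2 values (n = 3). Procr, Foxl1, Bmp2, Nrg1 and Col3a1 lie higher in colon GFP-positive than in GFP-high libraries, Dio2, Smoc2, Rgs5, C3 and Lrat lower, and Pdgfra and Col6a2 overlap.

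The telocyte list, 18 genes that hold Procr, Dio2 and Foxl1 as well, had 7 members higher and 2 lower, with 9 not passing and a median log2 difference of 0.86. Nrg1, an ErbB ligand that acts on epithelium, was the largest. It had 335, 168 and 495 in colon GFP-positive and 5.11, 2.59 and 6.10 in small intestine GFP-high libraries (log2 difference 5.82 ± 0.49 SE, adjusted p = 3.1e-05). Bmp2, a ligand that promotes epithelial differentiation, had 2899, 1923 and 3314 in colon GFP-positive and 217, 183 and 257 in small intestine GFP-high libraries (log2 difference 3.60 ± 0.30 SE, adjusted p = 3.2e-05). Both were higher in every colon library than in any GFP-high library. The 2 lower members were Dio2 and Frzb. Between the GFP-negative cells, 8 of the telocyte genes were higher in the colon and 1 lower. With the GFP-low gate in place of the GFP-high one, 14 of the telocyte genes were higher in the colon, and 16 with the average of both gates. Of all genes tested, 2018 of 12372 were higher with the GFP-low gate and 2570 of 12090 with the average.

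Among 16 transcription factors of telocytes and subepithelial cells, 5 were higher and 1 lower (median 0.75). Runx1, a factor of blood and mesenchymal lineages, had 601, 248 and 482 in colon GFP-positive and 60.1, 36.3 and 46.4 in small intestine GFP-high libraries (log2 difference 3.13 ± 0.37 SE, adjusted p = 2.7e-04). Foxf1, a Hedgehog-responsive factor of gut mesenchyme, had 1152, 913 and 1353 in colon GFP-positive and 240.2, 294 and 285 in small intestine GFP-high libraries (log2 difference 2.04 ± 0.27 SE, adjusted p = 5.9e-04).

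Most Hox genes that passed were lower in the colon GFP-positive cells, and the exceptions were Hoxa2, Hoxa9, Hoxa10 and Hoxa11. Of 39 genes on the list, 21 were tested: 4 were higher in the colon GFP-positive cells, 10 lower and 7 did not pass, with a median log2 difference of -1.80. All 5 tested genes of cluster B were lower (median -3.69), and 3 of 5 in cluster C. Of the 15 with paralogue numbers up to 8, 10 were lower and 1 higher (median -3.21), while of the 6 with higher numbers 3 were higher and 0 lower (median 2.66); this division was chosen after the values were seen. Hoxc8 (chr15:102990607-102994111), a thoracic-level gene, had 17.8, 20.7 and 4.61 in colon GFP-positive and 1163, 1649 and 1870.3 in GFP-high libraries (log2 difference -6.86 ± 0.48 SE, adjusted p = 1.1e-05). Hoxb4 had 10.04, 5.37 and 8.45 against 169, 126 and 149 (log2 difference -4.08 ± 0.40 SE, adjusted p = 7.9e-05). Hoxc4 had 5.41, 0.767 and 3.84 against 206, 226 and 195 (log2 difference -5.79 ± 0.53 SE, adjusted p = 5.0e-05). Each was near the bottom of the scale in every colon library. Hoxb2, Hoxb3, Hoxb5, Hoxb6 and Hoxc6 were lower too, with log2 differences of -3.69, -3.42, -3.21, -5.07 and -3.58. In the other direction, Hoxa9 (chr6:52223100-52231089) had 228, 179.6 and 257 in colon GFP-positive and 28.1, 16.9 and 9.76 in GFP-high libraries (log2 difference 3.63 ± 0.41 SE, adjusted p = 2.0e-04). Hoxa10 had 120.5, 114 and 114 against 28.1, 50.6 and 20.7 (log2 difference 1.87 ± 0.38 SE, adjusted p = 0.0063). Hoxa9 and Hoxa10 did not overlap between the groups and have no strand-uncertain flag.

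Hoxa11 and Hoxa2 also passed as higher, at log2 differences of 5.14 ± 1.01 SE and 4.39 ± 0.94 SE, but Hoxa11 lies beside Hoxa11os and Hoxa2 beside Hotairm1 on the opposite strand, and both are strand-uncertain. The lower calls of Hoxa4 and Hoxd8 (-2.004 and -1.80) are strand-uncertain as well. The Hoxa4 call was lost on leaving out any of 5 of the 6 libraries, with adjusted p of 0.053 to 0.090. The most posterior genes were listed in the colon table and had no row in the small intestine table used, so they were not compared: Hoxa13 had 40.2, 59.1 and 45.3 rescaled counts, Hoxd10 71.1, 28.4 and 81.4 and Hoxd11 63.3, 33.8 and 99.9 in the colon GFP-positive libraries. Hoxc10 and Hoxd9, at 2.85 and 2.47, and Hoxc9, at -1.90, did not pass (adjusted p = 0.087, 0.10 and 0.062). Hoxc4 and its neighbours share exons, so reads may be divided between them.

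**Figure D3:**
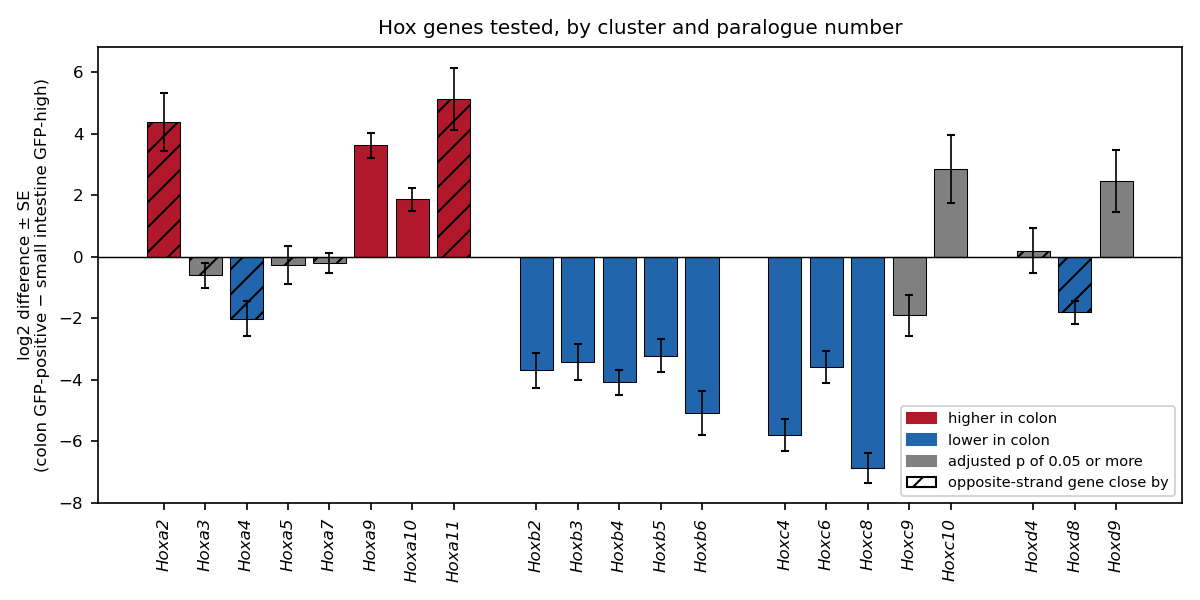
Log2 difference with its SE (colon GFP-positive minus small intestine GFP-high, n = 3 each) for the 21 Hox genes tested, by cluster and paralogue number; hatched bars are strand-uncertain. Hoxa9 and Hoxa10 are higher in the colon, and all 5 tested cluster B genes and Hoxc4, Hoxc6 and Hoxc8 are lower.

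Of 52 other regional transcription factors, 18 were tested, with 2 higher and 3 lower (median 0.40). Over all genes tested 13.2% were higher and 10.3% lower, so the list did not stand out by its counts. Pitx1, a hindlimb and hindgut homeobox gene, had 312, 364 and 436 in colon GFP-positive and 28.1, 53.1 and 15.9 in small intestine GFP-high libraries (log2 difference 3.62 ± 0.41 SE, adjusted p = 2.0e-04). Tbx3, a T-box factor, was higher at 2.32 but is strand-uncertain. Eya1, a developmental co-activator, was lower at -3.44 (adjusted p = 0.0065). Nkx2-3, a gut mesenchyme homeobox gene, had a log2 difference of 1.06 that did not pass (adjusted p = 0.11).

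Ligands of the EGF, HGF, IGF and FGF receptors were higher in the colon GFP-positive cells in 9 of 16 tested, with 1 lower and a median log2 difference of 1.51; 8 of the 9 are not strand-uncertain. Beside Nrg1, the EGF receptor ligand Ereg had 1693, 519 and 2059 in colon GFP-positive and 155, 189 and 255 in small intestine GFP-high libraries (log2 difference 2.63 ± 0.47 SE, adjusted p = 0.003). Fgf7, a keratinocyte growth factor, had 56.4, 34.5 and 62.2 in colon GFP-positive and 2.56, 3.89 and 8.54 in small intestine GFP-high libraries (log2 difference 3.20 ± 0.58 SE, adjusted p = 0.0031). The groups overlapped for neither gene, and colon GFP-positive replicate 2 was the lowest colon library for Nrg1, Ereg and Fgf7. Without colon replicate 3, 3 of the 16 passed as higher, and without colon replicate 1, 5. The BMP and GDF list had 4 higher and 2 lower of 15 (median 0.78), where 13.2% of all genes tested were higher and 10.3% lower. Inhba and Gdf11, an activin subunit and a GDF ligand, were higher at 2.83 and 2.48, and Inhbb, another activin subunit, was lower at -3.18. Bmp5, with 2338, 2462 and 1967 in colon GFP-positive and 1047, 1257 and 1587 in small intestine GFP-high libraries, did not pass (log2 difference 0.81 ± 0.28 SE, adjusted p = 0.061). Of 11 secreted BMP antagonists 3 were higher and 3 lower; Grem1, which holds BMP signals away from the crypt base, was lower at 38.6, 70.6 and 39.9 in colon GFP-positive and 146, 165 and 240.3 in GFP-high libraries (log2 difference -1.89 ± 0.35 SE, adjusted p = 0.0039).

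The Wnt ligands that passed were higher in the colon GFP-positive cells, and 4 of the 5 secreted Wnt inhibitors that passed were lower. Of 5 Wnt ligands tested, 3 were higher and 0 lower (median 0.95). Wnt5b, a non-canonical ligand, had 115, 141 and 109.8 in colon GFP-positive and 8.95, 12.96 and 10.98 in small intestine GFP-high libraries (log2 difference 3.37 ± 0.38 SE, adjusted p = 1.9e-04). Wnt5a, another, had 670.4, 1104 and 821 in colon GFP-positive and 275, 189 and 371 in small intestine GFP-high libraries (log2 difference 1.66 ± 0.33 SE, adjusted p = 0.0052). Wnt2b, a canonical ligand, did not pass (log2 difference -0.15 ± 0.34 SE, adjusted p = 0.78). Of 9 secreted Wnt inhibitors 4 were lower and 1 higher (median -0.98). Dkk2 had 11.6, 4.60 and 12.3 in colon GFP-positive and 134, 205 and 93.9 in small intestine GFP-high libraries (log2 difference -3.82 ± 0.48 SE, adjusted p = 4.0e-04). Apcdd1, Frzb and Sfrp1 were lower at -2.79, -1.97 and -1.64. All 4 were lower in each colon library than in any GFP-high library. Rspo2, an R-spondin that amplifies Wnt signals, was at the bottom of the scale in the colon, with 0, 0.767 and 3.07 against 35.8, 50.6 and 36.6 in GFP-high libraries (log2 difference -4.42 ± 0.76 SE, adjusted p = 0.0023); Rspo1 and Rspo3, at 0.96 and -0.97, did not pass. In the Hedgehog list 2 of 9 were higher and 0 lower, against 13.2% and 10.3% of all genes tested. Hhip, at -1.10, did not pass (adjusted p = 0.051). Ptch1, the receptor and target, had 1124, 815 and 1198 in colon GFP-positive and 357, 438 and 415 in small intestine GFP-high libraries (log2 difference 1.36 ± 0.28 SE, adjusted p = 0.006), and Gli1 passed too but is strand-uncertain. In the Notch list 3 of 8 were higher and 1 lower. The ligand Dll1 had 122, 77.5 and 111 in colon GFP-positive and 5.11, 12.96 and 2.44 in small intestine GFP-high libraries (log2 difference 3.95 ± 0.56 SE, adjusted p = 8.1e-04).

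Collagens other than collagen VI had 7 members higher and 2 lower of 21 (median 0.79). Col3a1, a fibrillar collagen, had 19761, 25456 and 25671 in colon GFP-positive and 3817, 3833 and 4157 in small intestine GFP-high libraries (log2 difference 2.58 ± 0.28 SE, adjusted p = 1.7e-04), and its groups were far apart. Col4a5, of basement membrane, and Col5a1, which regulates fibril width, were higher at 2.08 and 1.41. The summed level of the collagen list was 61722 to 63731 rescaled counts in colon GFP-positive and 23389 to 33294 in GFP-high libraries. In GFP-negative cells it was 53172 to 72205 in the colon and 42776 to 61815 in the small intestine, and in the GFP-low gate 33666 to 44885. Among 12 laminins and basement membrane genes 3 were higher and 1 lower, against 13.2% and 10.3% of all genes tested. Hspg2, perlecan, was lower (log2 difference -2.999 ± 0.53 SE, adjusted p = 0.0029). The latent TGF-beta binding proteins Ltbp1 and Ltbp2 were lower at -2.48 ± 0.26 SE and -4.22 ± 0.59 SE, and the proteoglycan Ogn higher at 2.27 ± 0.33 SE. Of the collagen VI list 1 was higher and 1 lower of 5: Col6a5 had 43.3, 45.3 and 64.5 in colon GFP-positive and 193, 306 and 245 in small intestine GFP-high libraries (log2 difference -2.26 ± 0.31 SE, adjusted p = 7.3e-04).

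Retinoid genes were lower in 4 and higher in 1 of 12 tested (median -0.68). Lrat, which esterifies retinol for storage, was at or near 0 in the colon: 0, 0 and 1.54 rescaled counts in colon GFP-positive and 189, 199.6 and 336 in GFP-high libraries (log2 difference -7.42 ± 0.57 SE, adjusted p = 2.0e-05). Aldh1a3, which makes retinoic acid, had 75.7, 49.9 and 66.1 in colon GFP-positive and 608, 1383 and 734 in small intestine GFP-high libraries (log2 difference -3.74 ± 0.35 SE, adjusted p = 5.9e-05). No colon library reached a GFP-high library for either gene. Aldh1a1, a second such enzyme, was lower at -1.61 (adjusted p = 0.0028). The 1 gene higher, Rarb, is strand-uncertain.

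Complement and acute-phase genes were lower in 8 of 12 tested and higher in none (median log2 difference -2.94); 6 of the 8 are not strand-uncertain. C3, the central complement component, had 663, 701 and 481 in colon GFP-positive and 8489, 6495 and 4575 in small intestine GFP-high libraries (log2 difference -3.38 ± 0.32 SE, adjusted p = 6.1e-05). C4a had 71.8, 42.2 and 23.8 in colon GFP-positive and 631, 829.6 and 426 in small intestine GFP-high libraries (log2 difference -3.83 ± 0.41 SE, adjusted p = 1.5e-04) and shares reads with near-identical C4b where counting cannot divide them. Saa3, an acute-phase protein, had 9.27, 9.21 and 12.3 in colon GFP-positive and 169, 148 and 255 in small intestine GFP-high libraries (log2 difference -4.06 ± 0.38 SE, adjusted p = 5.6e-05). Each was lower in all 3 colon libraries. The summed level of the list was 5892 to 7946 rescaled counts in colon GFP-positive, 14279 to 16020 in colon GFP-negative, and 20353 to 28031 in GFP-high libraries. It was above the GFP-high level in the other small intestine sorts, at 30703 to 48966 in the GFP-low gate and 40398 to 44255 in GFP-negative cells. C1ra and C1s1, which start the classical pathway, did not pass (log2 -0.69 and -0.71).

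MHC class I and antigen presentation genes were lower in 12 and higher in 1 of 18 (median -1.81). Between the GFP-negative cells of the tissues, 13 of the list were lower in the colon and 0 higher. B2m, the light chain of MHC class I, had 2475, 2208 and 2097 in colon GFP-positive and 5904, 10572 and 9229.7 in small intestine GFP-high libraries (log2 difference -1.88 ± 0.31 SE, adjusted p = 0.0019). H2-D1, a heavy chain, had 1628, 1477 and 1336 in colon GFP-positive and 4484, 4408 and 5678 in small intestine GFP-high libraries (log2 difference -1.71 ± 0.27 SE, adjusted p = 0.0017). Psmb8, an immunoproteasome subunit, was lower at -2.91. The groups did not overlap for any of these 3. H2-D1 and H2-Q7 (-3.22) belong to a family of near-identical genes, so their counts are uncertain. Interferon-stimulated genes had 6 lower and 3 higher of 27 (median 0.09), with Bst2, a membrane antiviral protein, lower at -2.07. Of 36 cytokines and chemokines, 8 were higher and 7 lower. Among all genes tested 13.2% were higher and 10.3% lower. Cxcl5, a neutrophil chemokine, had 16.99, 3.84 and 9.99 in colon GFP-positive and 162, 246 and 221 in small intestine GFP-high libraries (log2 difference -4.40 ± 0.49 SE, adjusted p = 1.9e-04). Il33, an alarmin, had 36.3, 32.2 and 32.3 in colon GFP-positive and 243, 179 and 279 in small intestine GFP-high libraries (log2 difference -2.74 ± 0.31 SE, adjusted p = 1.9e-04). Ccl19, which attracts dendritic and T cells, had 0, 0 and 0.768 in colon GFP-positive and 58.8, 71.3 and 23.2 in small intestine GFP-high libraries (log2 difference -5.28 ± 0.79 SE, adjusted p = 0.0011). Tslp, an epithelial and stromal alarmin, went the other way, with 66.4, 44.5 and 104 in colon GFP-positive and 7.67, 2.59 and 1.22 in small intestine GFP-high libraries (log2 difference 4.06 ± 0.64 SE, adjusted p = 0.0015). For none of these 4 did the groups overlap.

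Genes known to respond to tissue dissociation and heat shock had the largest share of calls in one direction among the 18 lists plotted: 24 of 32 were higher in the colon GFP-positive cells, 0 lower and 8 did not pass (median 2.25), and 22 of the 24 are not strand-uncertain. Nr4a2, an orphan nuclear receptor and immediate-early gene, had 6322, 938 and 4446 in colon GFP-positive and 49.8, 98.5 and 23.2 in small intestine GFP-high libraries (log2 difference 5.91 ± 0.68 SE, adjusted p = 2.2e-04). Ier3 had 14916, 4145 and 18999 in colon GFP-positive and 562, 354 and 283 in small intestine GFP-high libraries (log2 difference 4.78 ± 0.52 SE, adjusted p = 1.6e-04). Jun, an AP-1 subunit, had 21353, 13519 and 23413 in colon GFP-positive and 3657, 2430.3 and 2352 in small intestine GFP-high libraries (log2 difference 2.78 ± 0.33 SE, adjusted p = 2.8e-04). The 3 colon libraries were not alike: replicate 2 was the lowest for all 3 genes, and still above every GFP-high library. Socs3, a cytokine feedback inhibitor, and Klf4 were higher at 3.57 and 3.34, and Hspa8 and Jund, at 1.13 and 0.13, did not pass. The list's summed level was 95820 to 180560 rescaled counts in colon GFP-positive libraries and 20790 to 39046 in GFP-high libraries. In GFP-negative cells it was 120170 to 208630 in the colon and 77098 to 104780 in the small intestine, and in the GFP-low gate 32322 to 43047. Ptgs2, the inducible prostaglandin synthase, had 10552, 1316 and 4146 in colon GFP-positive and 83.1, 92.03 and 30.5 in small intestine GFP-high libraries (log2 difference 5.95 ± 0.66 SE, adjusted p = 1.8e-04), with the same low colon replicate 2; Prdm1, Vegfa, Ereg and Nrg1 were higher too and were lowest in that colon library. The part of cell handling in these differences was not tested.

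**Figure D4:**
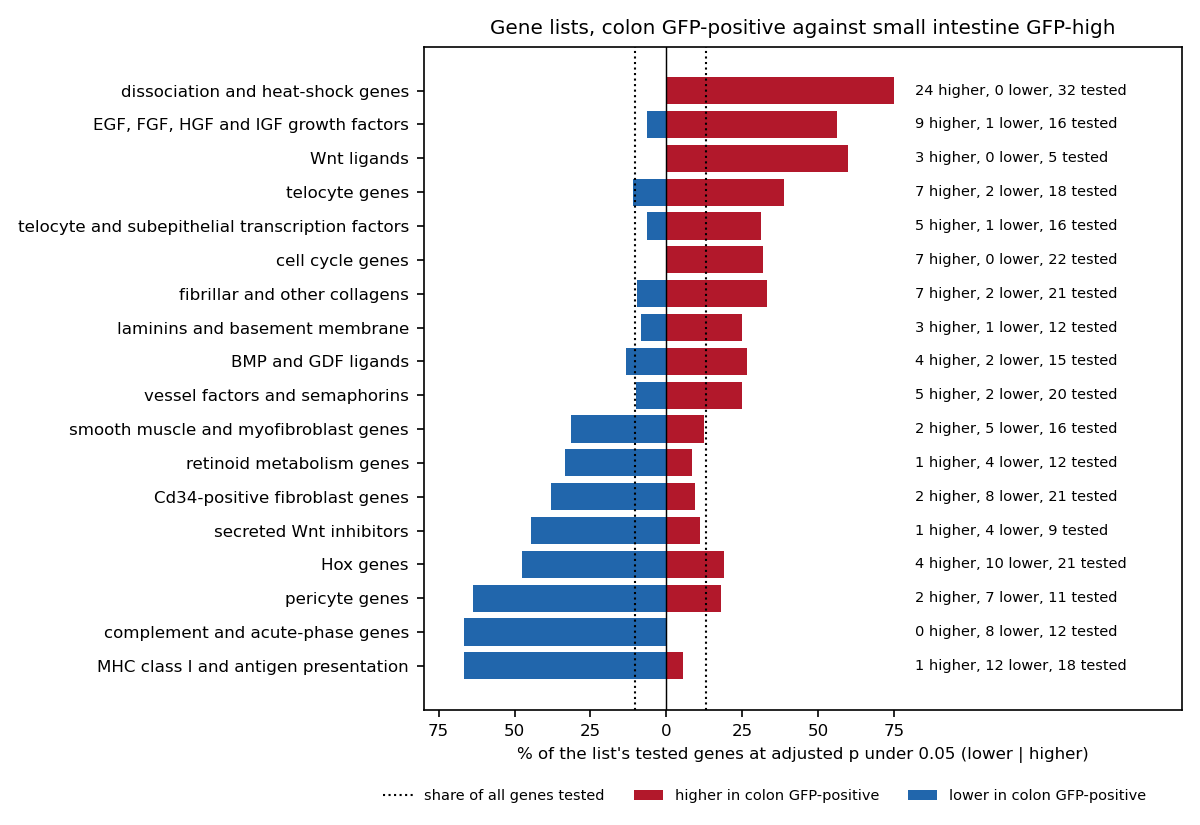
Share of the tested genes of 18 lists that passed as higher (red, to the right) or lower (blue, to the left) in colon GFP-positive against small intestine GFP-high cells; dotted lines are the shares over all genes tested, 13.2% higher and 10.3% lower. Dissociation and heat-shock genes, growth factors and Wnt ligands lie to the right, and MHC class I, complement and pericyte genes to the left.

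Smooth muscle and myofibroblast genes had 2 members higher and 5 lower of 16 (median -0.56), and genes of Cd34-positive fibroblasts 2 higher and 8 lower of 21 (median -0.73). For the Cd34-positive fibroblast list 5 were lower without colon replicate 1 and 5 without colon replicate 3. Of 22 cell cycle genes 7 were higher and 0 lower (median 1.36), and 4 of the 7 are not strand-uncertain. Of 36 cytosolic ribosomal protein genes 5 were lower and 0 higher. The shares over all genes tested were 13.2% higher and 10.3% lower. The Y-linked Ddx3y had 135, 121 and 79.9 in colon GFP-positive and 194, 255 and 246 in small intestine GFP-high libraries (log2 difference -1.07 ± 0.30 SE, adjusted p = 0.029), a call lost without any 1 of the 3 colon libraries or GFP-high replicate 3 (adjusted p = 0.051 to 0.14). The X-linked noncoding RNA Xist, strand-uncertain beside Tsix, was above 0 in every library. Of 4 sex-linked genes tested 2 were lower and 0 higher. The 5 sex-linked genes listed for both tissues, Xist among them, summed to 139 to 202 in colon GFP-positive and 323 to 644 in GFP-high libraries. The part of the sex of the mice in the results was not tested.

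Markers of other cell types moved with some of these groups. The pericyte list had 7 members lower and 2 higher of 11 (median -1.55), and 5 lower and 0 higher without strand-uncertain genes; without colon replicate 1 there were 4 lower and 1 higher. Rgs5, which defines pericytes, had 76.5, 74.4 and 187 in colon GFP-positive and 3174, 3119 and 4977 in small intestine GFP-high libraries (log2 difference -5.15 ± 0.39 SE, adjusted p = 1.8e-05). Its level was 6563, 9726 and 7008 in the GFP-low gate and 142, 388 and 365 in colon GFP-negative cells. The summed pericyte level was 1166 to 1243 in colon GFP-positive and 4808 to 7505 in GFP-high libraries. In GFP-negative cells it was 1087 to 1368 in the colon and 2570 to 3453 in the small intestine, and in the GFP-low gate 7174 to 10853. Ano1, a marker of interstitial cells of Cajal, was higher in the colon (log2 difference 3.17 ± 0.40 SE, adjusted p = 3.9e-04). Of the 3 tested genes on the list of those cells, 1 was higher, 1 was lower and 1 did not pass. Of 12 endothelial genes 1 was higher and 0 lower, and of 7 tested glia and neuron genes none passed. Summed immune genes were 78.3 to 144 in colon GFP-positive and 150.4 to 261 in GFP-high libraries, against 12628 to 13228 in the unsorted small intestine. Summed epithelial genes were 87.5 to 436 in colon GFP-positive and 258 to 776 in GFP-high libraries, against 2855 to 4959 in that unsorted tissue. The part of these other cell types in the results was not tested.

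Liver genes were present in the small intestine libraries and at the bottom of the scale in the colon. Alb, serum albumin, had 0.772, 0.767 and 0.768 rescaled counts in colon GFP-positive libraries, against 11910.0, 1321 and 8066 in GFP-high libraries (log2 difference -11.47 ± 0.66 SE, adjusted p = 3.5e-06). GFP-high replicate 2 was the lowest of its group. Alb was 15673, 3568 and 6691 in the GFP-low gate and 1896, 7156 and 12.6 in GFP-negative small intestine cells, so its spread within a sort was wide. A list of 22 hepatocyte genes was drawn up after the values were seen and is described by its levels, with no count of calls. Its summed level was 52.2 to 62.6 in colon GFP-positive, 4153 to 31471 in GFP-high, 9526 to 50478 in GFP-low and 204 to 1022 in unsorted small intestine libraries. Apoa1, on the enterocyte list, follows it with 10713, 1344 and 11225 in GFP-high libraries. Hepatocytes also make C3 and Saa3; C3 had 14920.0, 15393 and 16069 rescaled counts in the 3 GFP-negative small intestine libraries, in the order in which Alb is given above. The part of these liver genes in the lower complement counts was not tested. Apoa1, Alb, Serpina1a and Mup3 were among the 12 genes with the most negative differences, along with Lrat and Hoxc8.

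The largest positive differences were, by the same rule, mostly strand-uncertain. Gm10800 and Gm26870, predicted genes without that flag, were among the first. Gm10800 had 28953, 3728 and 6745 in colon GFP-positive and 23.002, 0 and 0 in small intestine GFP-high libraries, and Gm26870 had 13971, 2206 and 3728 in colon GFP-positive and 20.4, 2.59 and 6.10 in small intestine GFP-high libraries, with colon replicate 1 far above the others. Pram1 (beside Hnrnpm), Best1 (beside Fth1), Slc51a (beside Pcyt1a) and Ccl27a (beside Il11ra1) are strand-uncertain: Best1 had the values of Fth1 in all 3 colon libraries, 2373, 3060 and 2516 normalised counts. Among genes with no such flag, picked after the values were seen, Fam129a had 249, 313 and 188 in colon GFP-positive and 8.95, 0 and 0 in small intestine GFP-high libraries, Kazald1 302, 203 and 174 in colon GFP-positive and 3.83, 2.59 and 0 in small intestine GFP-high libraries and Malat1, a nuclear long noncoding RNA, 9879, 14319 and 17339 in colon GFP-positive and 238, 137 and 671 in small intestine GFP-high libraries (log2 difference 5.58 ± 0.50 SE, adjusted p = 4.6e-05). The naming rule took only genes whose groups did not overlap, so all 3 were higher in every colon library by selection. Genes with a row in only 1 table numbered 2758 for the colon and 1199 for the small intestine, and were not tested. Those with the highest means were 4930442H23Rik (7379.6 rescaled counts) and Gm5148 (5609.5) in colon GFP-positive cells, and Apoa2 (4912) and Serpina1c (4875), both made by liver, in GFP-high cells. 4930442H23Rik is strand-uncertain, beside Eef2.

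The same contrast in GFP-negative cells called 2469 of 12919 genes (19.1%), 1450 higher (11.2%) and 1019 lower (7.89%). Of the genes higher in colon GFP-positive cells 56.8% were also higher in colon GFP-negative cells, and those were 64.0% of the GFP-negative calls. For lower genes the shares were 45% and 56.5%. Genes called in opposite directions in the sorts numbered 9. By list, the GFP-negative contrast had 8 telocyte genes higher and 1 lower, and 8 subepithelial transcription factors higher and 0 lower. Wnt ligands had 3 higher and 0 lower, Hox genes 4 and 8, and retinoid genes 1 and 4. Complement genes had 0 higher and 7 lower, and dissociation genes 18 and 0. Pericyte genes had 4 higher and 1 lower, against 2 and 7 in the GFP-positive comparison. Both contrasts use the same pair of library series, so their shared calls are a description and no support for either. Procr had a log2 difference between the tissues of 3.73 in the GFP-positive cells, against 3.92 in the GFP-negative cells. Foxl1 had 3.45 in the GFP-positive cells against 3.36, Hoxc8 -6.86 against -6.85, and B2m -1.88 against -1.80. The difference of the contrasts was -0.17 ± 1.44 SE, 95% interval -3.26 to 2.93, adjusted p = 0.995 for Procr and -0.06 ± 0.43 SE, 95% interval -0.98 to 0.86, adjusted p = 0.992 for B2m. Those intervals do not show that the sorts act alike.

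A tissue difference of another size in GFP-positive than in GFP-negative cells was found for 18 genes of 12919 (0.139%), 9 higher and 9 lower (0.0697% each), and 1035 had an unadjusted p under 0.05. In these tests an effect of library series that is equal in both sorts on the log2 scale cancels; an effect of strand in counting need not. Of the 18, 6 were strand-uncertain (Slc51a, Naaladl1, Ctsw, Rhbdd3, Trp53i11 and Bmp6). The calls were fragile: 0 passed without colon GFP-positive replicate 1, 2 or 3, or without colon GFP-negative replicate 2 or 3, 1 passed without colon GFP-negative replicate 1, and 0 passed with the replicate number as a block. Without small intestine GFP-high replicate 3 there were 8 and without small intestine GFP-negative replicate 1 there were 9, against 39 without small intestine GFP-negative replicate 3.

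Dio2 was the largest of the lower genes. It had 5.06, 2.53 and 12.6 rescaled counts in small intestine GFP-negative libraries, so with the values given above the GFP-high cells stood above the other 3 sorts (difference -6.13 ± 0.82 SE, 95% interval -7.88 to -4.39, adjusted p = 0.0203). Ccl11, eotaxin, had 208, 124 and 127 in colon GFP-positive and 1093, 843 and 1560.4 in GFP-high libraries, with 556, 628 and 653 and 901, 391 and 539 in the GFP-negative cells of colon and small intestine (difference -2.98 ± 0.48 SE, 95% interval -4.005 to -1.95, adjusted p = 0.0283). Smoc2, a calcium-binding matrix protein known as an intestinal stem cell gene, had 54.1, 52.2 and 49.2 in colon GFP-positive and 1923, 1373 and 2155 in GFP-high libraries, with 97.7, 105 and 83.8 and 875, 786 and 737 in the GFP-negative cells of colon and small intestine (difference -1.998 ± 0.37 SE, 95% interval -2.78 to -1.22, adjusted p = 0.0495). Its colon libraries were the lower ones in both sorts. Igfbp5, an IGF binding protein, Mgarp, a mitochondrial protein, and Kcnj8, a potassium channel of pericytes, had differences of -2.88, -2.58 and -4.37, with adjusted p of 0.0495, 0.0203 and 0.0495. Col12a1, a fibril-associated collagen, had a difference of -2.16 ± 0.39 SE, 95% interval -2.995 to -1.33, adjusted p = 0.0495; its log2 difference between the tissues was 0.85 in GFP-positive cells, which did not pass, and 3.03 in GFP-negative cells.

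Among the higher genes without a strand flag, Kazald1, a secreted protein, had 86.9, 70.8 and 65.4 in colon GFP-negative and 26.6, 13.9 and 36.7 in small intestine GFP-negative libraries (difference 4.85 ± 0.82 SE, 95% interval 3.10 to 6.61, adjusted p = 0.038). Phlda1, a growth factor-induced gene, had 3080.1, 1462 and 3323 in colon GFP-positive and 321, 476 and 332 in GFP-high libraries, with 1253, 1826 and 1946 and 1859.8, 1802 and 1236 in the GFP-negative cells of colon and small intestine (difference 2.73 ± 0.48 SE, 95% interval 1.71 to 3.74, adjusted p = 0.046). Its colon values were above the small intestine values in the GFP-positive cells, at a log2 difference of 2.73, and its GFP-negative contrast was 0.02 (adjusted p = 0.97). Tgfbi, a matrix protein induced by TGF-beta, Piezo2, a mechanosensitive channel, and Edn3, an endothelin, had differences of 2.34, 4.47 and 3.72 (adjusted p = 0.0283, 0.0203 and 0.0495). Their GFP-negative contrasts were -1.70, -3.49 and -2.66 (adjusted p = 5.5e-04, 1.9e-04 and 0.0014), while the GFP-positive contrasts of 0.62, 0.97 and 1.05 did not pass. Bmp2, with a difference of 2.71 ± 0.53 SE, 95% interval 1.59 to 3.83, adjusted p = 0.064, and Nrg1, with 3.60 ± 1.26 SE, 95% interval 0.92 to 6.29, adjusted p = 0.502, did not pass.

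**Figure D5:**
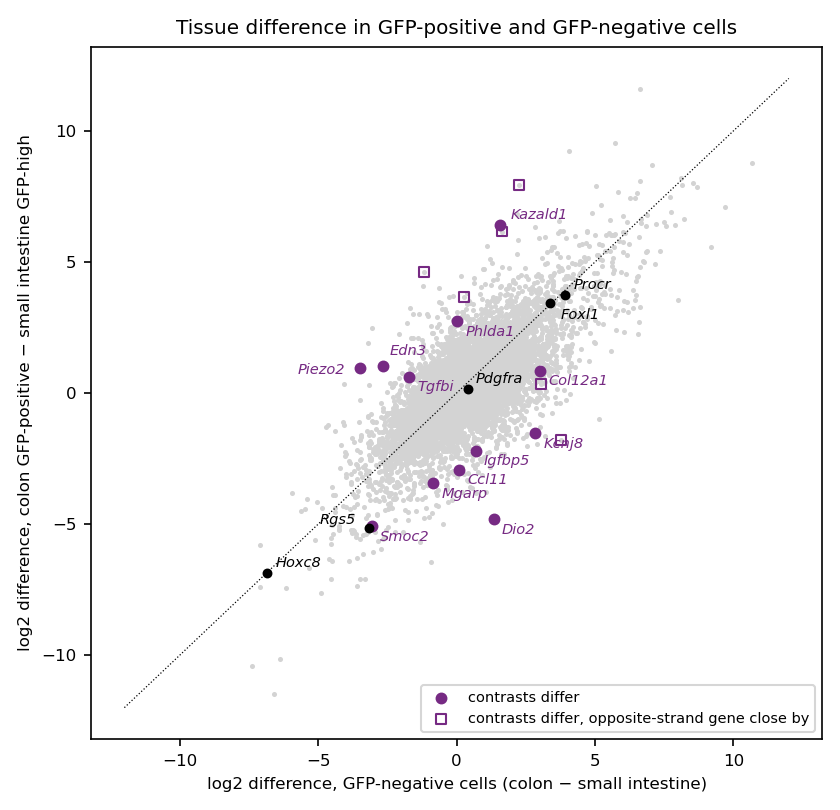
Log2 difference between colon GFP-positive and small intestine GFP-high cells (vertical) against that between colon and small intestine GFP-negative cells (horizontal) for each gene. The dotted line marks equal differences, purple symbols the genes whose contrasts differ (adjusted p under 0.05; open squares are strand-uncertain) and black points 5 named genes; Dio2 lies far below the line, while Procr lies close to it.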

How the data were processed

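RNA from sorted or unsorted intestinal mesenchymal cells was made into 3' tag libraries (Lexogen QuantSeq, which reads near the end of the transcript) and sequenced on an Ion Proton, per the labels' protocols. The submitters' processing notes name TopHat2, Bowtie2, DESeq and the mm10 build. The strand used in counting is not given in the sources used here. The deposited values are the authors' normalised counts rounded to whole numbers, treated as a score and not as raw counts, in tables normalised separately for each tissue; no count test was therefore run.

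Genes were joined by gene ID, and the 6 columns were rescaled by the median ratio to the gene-wise geometric mean over shared genes above 0 in all 6. This set the scale between the separately normalised tables. Each column was divided by its factor, which was 1.295 to 1.303 for colon GFP-positive and 0.772 to 0.820 for GFP-high columns. The test was limma's (version 3.58.1, under R 4.3.3), run on log2(value + 1) for genes that averaged 10 or more in either group. It used a mean-variance trend, robust variances, Benjamini-Hochberg adjustment and a threshold of 0.05. The difference of the tissue contrasts was fitted over 12 libraries in the same way. Both procedures were run on simulated data. The main test recovered 25.4% of changes of 1 on the log2 scale and 94% of changes of 2. The difference of the contrasts recovered 1.49% and 47.8%, so it missed most changes of 1. The simulation gave every group the same dispersion. In the real libraries the median SD of log2 values was 0.326 for colon GFP-positive and 0.553 for GFP-high. A single value of 3 against 3 libraries cannot reach an exact permutation p below 0.10, so none is given.

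Depth was read from the spacing of low values where it could be resolved, and no interval that needs counts is given. No 2 libraries held identical values. Same-numbered libraries did not deviate together in every pair: correlations for numbers 1, 2 and 3 were -0.021, -0.05 and 0.03 between colon GFP-positive and GFP-high, 0.14, -0.17 and 0.1 between colon GFP-positive and GFP-negative, and 0.00097, -0.084 and -0.053 between GFP-high and small intestine GFP-negative. The numbers were therefore not used as pairs. Members and gene lists were chosen with earlier results of these data known, and lists are described by counts and medians only. Named genes were the identity genes, all Hox genes and up to 5 called and 2 uncalled members of each list. The 12 highest and 12 lowest calls with a mean of at least 50 and no overlap between the groups were named too. So were the called differences of contrasts and the 6 highest genes in only 1 table. The strand-uncertain rule, the settings that use it, and the hepatocyte list were chosen after the data were seen. Other pseudocounts, filters, scalings, gates and left-out libraries were also tried. One unsorted small intestine library was not analysed here. Some genes that the naming rule selects are not reported here.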

Additional observations from a re-analysis of the deposited data

Results flagged for a closer look

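The size of the tissue difference itself differed between GFP-positive and GFP-negative cells for 18 genes (limma, adjusted p under 0.05 over 12919 genes). No gene passed with the replicate number as a block, or without colon GFP-positive replicate 1, 2 or 3, or without colon GFP-negative replicate 2 or 3, and 1 passed without colon GFP-negative replicate 1. Without a strand-uncertain neighbour, the 7 genes with a lower contrast in the GFP-positive cells were Dio2 (-6.13 on the log2 scale), Kcnj8 (-4.37), Ccl11 (-2.98), Igfbp5 (-2.88), Mgarp (-2.58), Col12a1 (-2.16) and Smoc2 (-1.998). The 5 with a higher contrast were Kazald1 (4.85), Piezo2 (4.47), Edn3 (3.72), Phlda1 (2.73) and Tgfbi (2.34). The 6 strand-uncertain genes were Naaladl1 (5.79), Slc51a (5.67, listed at 0 in the GFP-high libraries), Ctsw (4.50), Rhbdd3 (3.41), Bmp6 (-2.69) and Trp53i11 (-5.53). Groups of 3 libraries allow no outlier test.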

How the results depend on the processing

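The GFP-positive comparison called 2915 genes, 1635 higher and 1280 lower. On the authors' scales as deposited it called 4909, 4378 higher and 531 lower, and the median difference of all genes moved to 0.78 on the log2 scale. With equal totals 1391 were higher and 1492 lower, and with quantile normalisation 1594 and 1604. With GFP-high and GFP-low averaged 2570 were higher. Without strand-uncertain genes 1904 passed, 997 of them higher, and without any gene with an opposite-strand neighbour 1282 passed, 679 higher and 603 lower. Leaving out 1 library gave 1430 to 3135 calls, 834 to 1771 higher and 596 to 1364 lower. The replicate number as a block, which matched colon GFP-positive with GFP-high libraries, gave 2772 calls, 1611 higher and 1161 lower. In another matching, with the GFP-negative libraries of the same tissue, 1 of the 6 libraries correlated best with its own number.

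The difference of the contrasts called 18 genes, 9 in each direction. It called 5 lower on the authors' scales, 5 lower with a pseudocount of 0.5, 11 with 5 lower without a filter, 6 without strand-uncertain genes (3 in each direction), 10 without opposite-strand neighbours (5 in each direction) and 0 with the replicate block. Leaving out 1 library gave 0 to 39 calls, 0 to 10 higher and 0 to 29 lower.

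Genes that had passed and changed direction were Dio2 (1.97), Kcnj8 (2.12, adjusted p = 0.0256 in the new direction) and Trp53i11 (1.18) with the GFP-low gate and Kcnj8 with the gates averaged (0.31). The others had not passed. On the authors' scales these were Acta2 (0.42), Col6a1 (0.28), Col6a2 (0.65), Col6a3 (0.22), Wnt2b (0.56), C1ra (0.028) and C1s1 (0.0066). With the GFP-low gate they were Acta2 (2.14, which passed at an adjusted p of 6.1e-04), Col6a2 (0.23) and Piezo2 (-0.27), and with the gates averaged Acta2 (0.94, which passed at 0.0265) and Col6a2 (0.10). Col6a2 was 0.013 without strand-uncertain genes and 0.054 without opposite-strand neighbours. Left-out libraries gave -0.0035 to 0.41 for Pdgfra, -0.23 to 0.22 for Col6a2, -0.33 to 0.077 for Wnt2b and -0.42 to 0.66 for Jund. The causes were not tested. With the gates averaged the Dio2 call was lost (-1.42, adjusted p = 0.0532). With the GFP-low gate Hoxd8, Fgf7, Aldh1a1, Hspg2 and Ltbp2 did not pass (adjusted p = 0.101, 0.0584, 0.21, 0.0634 and 0.134), and with 12 libraries in the fit neither did Hoxa10 (0.157) nor Inhbb (0.077).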
